A study of Mus musculus with 5 samples.

Results

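The genes described here are 48 that carry out DNA replication and supply its nucleotides, of 46959 gene symbols listed in each library. They were taken by symbol from a list of names, and each of the 48 was found. The list holds 12 genes of origin licensing, 7 of helicase activation, 9 of the polymerases and primase, 8 of the sliding clamp, its loader and single-strand binding, 3 of flap processing and ligation, 5 of nucleotide supply and 4 of chromatin assembly and maintenance at the fork. The cells are D4M.3A, a melanoma line from a C57BL/6 mouse, kept between passages 7 and 12. The reference group carries the pBABE vector (genotype control, n = 2 libraries), and the other carries caMNK (genotype given as constitutive activation of MNK, n = 3 libraries). Each group is 1 cell line, no further treatment is given for either, so the introduced kinase and any other way in which these lines differ cannot be told apart. The labels do not say how the cultures were kept apart, so p-values measure the spread between these libraries, which may be technical.

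Before S phase, the origin recognition complex, Cdc6 and Cdt1 load the MCM helicase, a ring of the subunits Mcm2 to Mcm7, onto origins, and geminin (Gmnn) blocks loading once S phase has begun. The kinase Cdc7 then starts the helicase, which joins Cdc45 and the GINS complex at the fork, where polymerase alpha with primase lays down primers and polymerases delta and epsilon extend them. Many of these genes are transcribed late in G1 under E2F factors, which the retinoblastoma protein holds back, so their RNA is often used to follow proliferation.

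The libraries held 27827199 to 48794336 counts, and each of the 48 genes had between 520 and 18381 counts in every library, so all of them passed the filter on low counts. Mknk1 checks the labels: it measured 15.2 and 16.7 CPM (counts scaled to the library total) in pBABE and 167, 155 and 168 CPM in caMNK. The caMNK libraries were not alike, and the second principal component of log2 CPM, with 21.3% of the variance, set caMNK replicate 2 (−31.8) against caMNK replicate 3 (21.7). Of 11 pigment cell markers, 2 were abundant enough to test. Tyrp1, Dct and Slc45a2 had no count in any library, Sox10 had none in 4 of the 5, and Mitf measured 4.35 to 6.48 CPM, so most defining markers of pigment cells were absent or near 0. Of 10 mitochondrial mRNAs tested, 6 rose in caMNK and none fell (4.42% and 3.52% of all genes), and the summed level of the 13 listed was 12300 to 13500 CPM in pBABE and 18800 to 21700 CPM in caMNK. Of 8 nuclear non-coding RNAs tested, 5 rose and 1 fell (of all genes, again 4.42% and 3.52%), with sums of 496 to 511 CPM and 774 to 1070 CPM. Summed markers of other cell types were 13.4 to 14.9 CPM in pBABE and 13.2 to 18.1 CPM in caMNK for leukocytes, 5.47 to 9.48 and 3.54 to 3.62 for endothelium, 3.69 to 3.74 and 4.74 to 5.06 for keratinocytes, and 329 to 381 and 356 to 464 for fibroblasts. Genes within the endothelial and fibroblast sums went both ways. Of 3 endothelial markers tested, 2 had a log2 fold change above 0 and 1, Cdh5, below. Cdh5 measured 4.89 and 8.8 CPM in pBABE and 2.26, 2.47 and 2.81 CPM in caMNK. Of 4 fibroblast markers tested, 2 lay above 0 and 2 below. Col1a1 measured 164 and 152 CPM in pBABE and 83.6, 113 and 82.6 CPM in caMNK. Col1a2 measured 170 and 121 CPM in pBABE and 245, 305 and 233 CPM in caMNK. Cd3e and Krt1 had no count in any library. The part of these RNA classes and markers in the values below was not tested.

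None of the 48 replication genes passed the test between caMNK and pBABE, in either direction. Of all 17026 genes tested, 7.94% passed (4.42% higher and 3.52% lower in caMNK, edgeR adjusted p under 0.05), or 753 higher and 599 lower, a split that became 999 and 465 with total-count scaling. Of the 7991 tested genes whose mean log2 CPM lay in the range of the replication genes, 4.12 to 8.55, 6.75% passed. At an unadjusted p under 0.05 the count was 6 of 48 by edgeR, beside 25.9% of all genes. The median log2 fold change was 0.017, beside −0.0021 over all genes tested, with 26 values above 0 and 22 below. The caMNK libraries lay wholly above both pBABE libraries for 10 of the genes and wholly below for 10, together 20 of 48, where such separation held for 44.9% of all genes (22.3% above and 22.6% below). In RNA from whole cultures, a change in the number of cells in S phase and a change in RNA per cell cannot be told apart.

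Other ways of scaling, filtering and testing all 48 genes gave 0 or 1 called. None passed by DESeq2 (10.1% of all genes), by limma-voom (7.17%), with RLE scaling (8.03%) or with a stricter filter (8.31%). A fit without genes that may share reads with an overlapping gene held 36 of the 48, not Orc6 among them, and none of the 36 passed (6.74% of its genes). Orc6 alone passed with total-count scaling (8.60%) and with the replicate number as a block (15.9%), and Pola1 alone passed with no filter on low counts (10.4%).

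The differences were small as well as uncalled. The log2 fold change was under 0.2 in size, which is 14.9%, for 41 of the 48 genes (85.4%). The same held for 52.5% of all tested genes and for 68.8% of those in the same range of abundance. The 95% intervals of the fit extended 0.178 to 0.343 to either side of the estimate, with a median of 0.214. All 48 intervals lay within a 2-fold change either way, and 46 lay within 0.5 on the log2 scale, or 1.41-fold. The exceptions were Pola1, whose interval reached −0.70, and Hells, whose interval reached −0.62. Of the 48 intervals, 42 included 0 and 6 did not, and none of these 6 genes was called in the reported fit. The intervals are not adjusted for the number of genes tested. They do not give the smallest difference that 2 and 3 libraries could detect, and a difference within them may go uncalled.

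**Figure D1:**
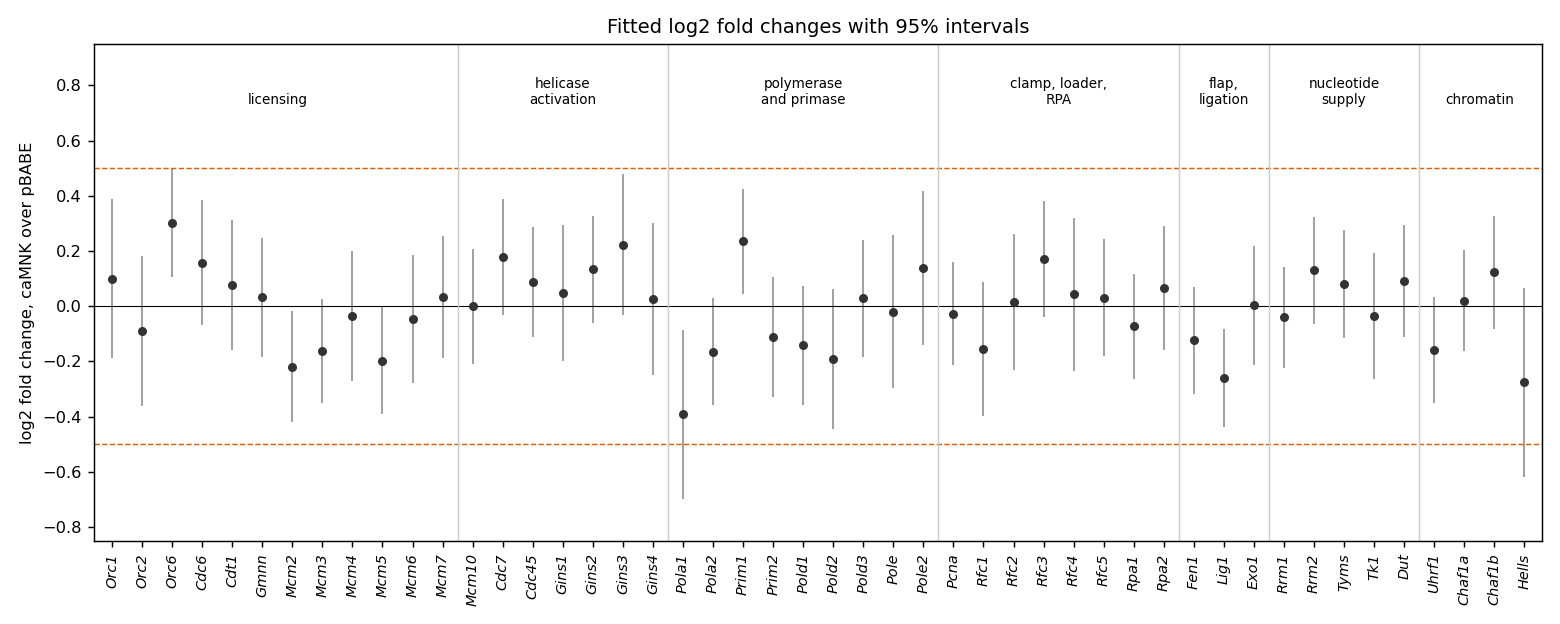
Fitted log2 fold change of caMNK over pBABE (y axis) for the 48 genes, grouped by role along the x axis. Points are edgeR estimates, bars are 95% intervals from 2 pBABE and 3 caMNK libraries, and dashed lines mark 0.5 either way. The values lie between −0.39 (Pola1) and 0.30 (Orc6), and the intervals of Pola1 and Hells are the ones that cross a dashed line.

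**Figure D2:**
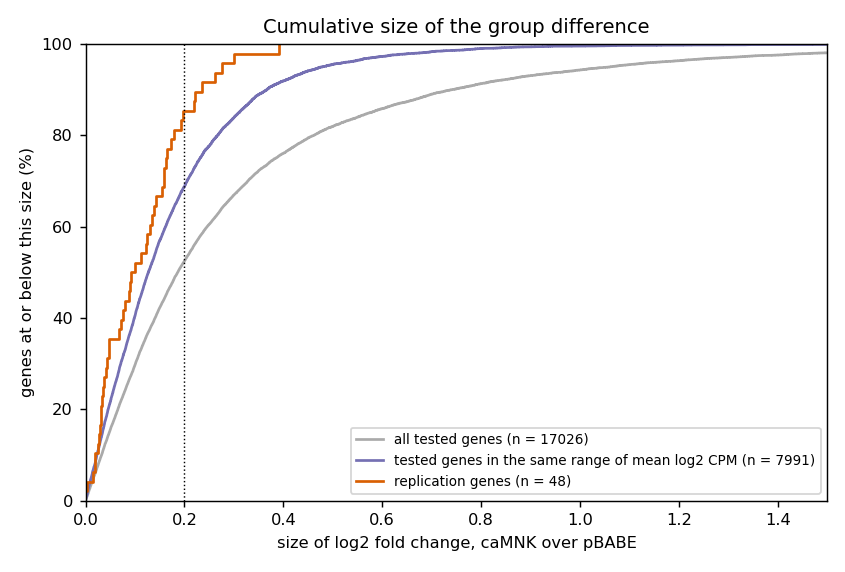
Cumulative share of genes (y axis, percent) with a log2 fold change at or below a given size (x axis), for the 48 replication genes, for all 17026 tested genes and for the 7991 in the same range of mean log2 CPM. The dotted line marks 0.2, below which lie 85.4%, 52.5% and 68.8% of the genes.

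A sequence feature that the choice of genes did not use is the E2F core motif. RefSeq promoter windows (GRCm38.p6, the same build as the mm10 of the count files, 250 bases before to 50 after a start site) were matched for 39 of the 48 genes. The letters TTTCCCGC or TTTGGCGC, on either strand, occurred in a window of 13 of these 39 genes (33.3%) and of 486 of all 27025 genes in the table (1.80%). The CCAAT box, the letters CCAAT on either strand, which may share an end base with an E2F core, occurred for 59.0% and 41.1%. Stretches around the core are shown for the 3 genes in which it lies outside the annotated gene body: Mcm5 and Mcm6, which are subunits of 1 ring, and Pola1, which had the lowest log2 fold change of the 48. They read 5′ to 3′ along the strand of the gene, and capitals mark the core.
Mcm5 (chr8:75109334-75109393, plus strand): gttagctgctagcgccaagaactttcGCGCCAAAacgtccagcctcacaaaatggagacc
Mcm6 (chr1:128359719-128359778, minus strand): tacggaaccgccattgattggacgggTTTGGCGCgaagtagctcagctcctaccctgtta
Mcm6 (chr1:128359782-128359841, minus strand): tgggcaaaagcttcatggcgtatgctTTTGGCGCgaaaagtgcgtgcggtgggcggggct
Pola1 (chrX:93632260-93632319, minus strand): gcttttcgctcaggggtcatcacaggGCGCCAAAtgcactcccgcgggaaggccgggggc
The core begins 149 bases before the RefSeq start site in Mcm5, 47 and 110 bases before it in Mcm6 and 138 in Pola1. It is read on the opposite strand in Mcm5 and Pola1 and on the strand of the gene in Mcm6. The other genes with a core are Mcm3, Mcm7, Cdc6, Cdt1, Gins3, Pold1, Pold3, Pole2, Rfc3 and Hells. The 13 genes with a core had a median log2 fold change of 0.028 and a range of −0.39 to 0.22, and the 26 matched genes without one had a median of 0.0095 and a range of −0.26 to 0.30. Of all 352 tested genes whose window holds a core, 6 rose and 7 fell, which is 3.69% beside 7.94% of all genes tested. The caMNK libraries lay wholly above pBABE for 71 of the 352 and wholly below for 83, where 22.3% and 22.6% of all genes did so. A match is a run of letters and not a measured binding site.

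Among the licensing genes, 3 subunits of the MCM ring lay lower in every caMNK library, as 22.6% of all genes did, and 3 did not. None of the 6 subunits was called. Mcm2 measured 169 and 166 CPM in pBABE and 146, 134 and 152 CPM in caMNK (log2 fold change −0.22, 95% interval −0.42 to −0.017, edgeR adjusted p = 0.163). Mcm3 measured 174 and 182 CPM in pBABE and 164, 158 and 154 CPM in caMNK (−0.16, adjusted p = 0.254). Mcm5 measured 186 and 187 CPM in pBABE and 171, 154 and 162 CPM in caMNK (−0.20, adjusted p = 0.187). For these 3 genes the groups did not overlap, and the lowest library was caMNK replicate 2 for Mcm2 and Mcm5 and caMNK replicate 3 for Mcm3.

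The other MCM subunits overlapped between the groups. Mcm4 measured 152 and 161 CPM in pBABE and 155, 167 and 137 CPM in caMNK (log2 fold change −0.035). Mcm6 measured 299 and 292 CPM in pBABE and 279, 318 and 260.3 CPM in caMNK (−0.047). For both, caMNK replicate 2 was the highest of the 5 libraries and caMNK replicate 3 the lowest, and their log2 fold changes were 0.018 and 0.0063 with total-count scaling. Mcm7, whose span overlaps Ap4m1 and Cops6, measured 236 and 241 CPM in pBABE and 258, 219 and 254 CPM in caMNK (0.033), with caMNK replicate 2 the lowest library. Over the 6 subunits the median was −0.10. The difference between the subunits was not tested.

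None of the factors that load the ring was called in the reported fit. Orc6 and Cdc6 were higher in every caMNK library, as 22.3% of all genes were. Orc6, a subunit of the origin recognition complex (chromosome 8, 85299632 to 85308278), had the lowest p of the 48. It measured 61.3 and 60.9 CPM in pBABE and 76.1, 78.4 and 71 CPM in caMNK, a log2 fold change of 0.30 (95% interval 0.10 to 0.50, edgeR adjusted p = 0.0677). Every caMNK library lay above both pBABE libraries, and the gap between the groups was larger than the spread within either. It overlaps Vps35 by 171 bases on the opposite strand, and whether reads there were counted by strand is not given, so the genes may share reads. Orc6 passed with total-count scaling (adjusted p = 0.0391) and with the replicate number as a block (0.0212). It also passed when either caMNK replicate 2 (0.0103) or caMNK replicate 3 (0.0375) was left out. Of the other origin subunits, Orc1, which shares reads with Gm12743, had a log2 fold change of 0.10 and Orc2, which shares reads with Nif3l1, −0.091. The loaders Cdc6 (0.16) and Cdt1 (0.075) and Gmnn (0.031), which blocks loading, had 95% intervals that included 0. Cdt1 and Gins2 lie wholly within the span of Gm20388.

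**Figure D3:**
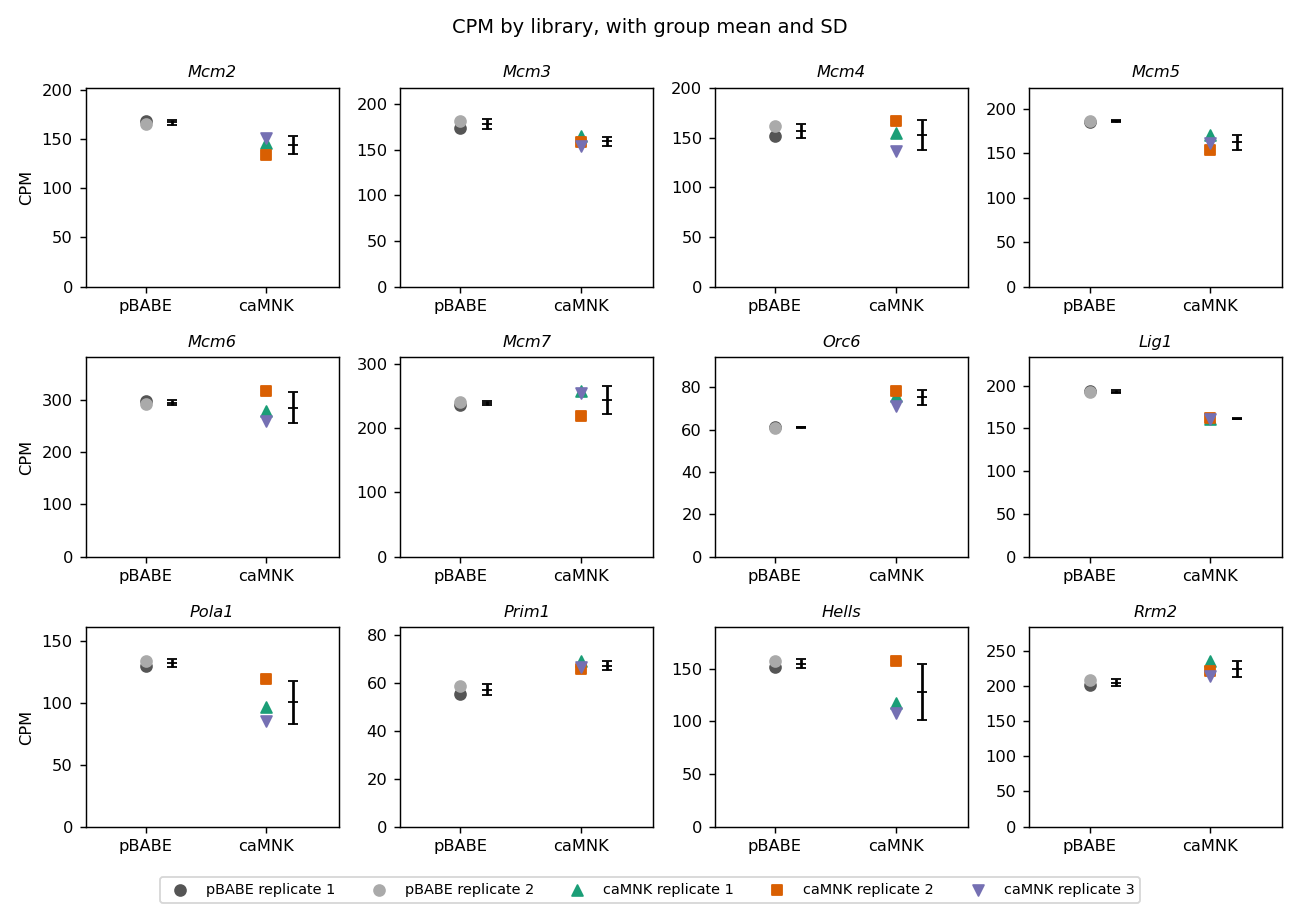
CPM (y axis, from 0) of 12 genes in every library, by group (x axis), with the group mean and SD beside the points. Mcm2, Mcm3, Mcm5, Lig1 and Pola1 lie lower in every caMNK library, Orc6, Prim1 and Rrm2 lie higher in every one, and Mcm4, Mcm6, Mcm7 and Hells overlap.

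The 7 genes of helicase activation leaned upward, with none called. Of them, 6 had a log2 fold change above 0, and 4, Cdc7, Cdc45, Gins2 and Gins3, were higher in every caMNK library, where 22.3% of all genes were. Gins3, a subunit of the GINS complex, measured 14.4 and 17.2 CPM in pBABE and 18.1, 18.3 and 18.6 CPM in caMNK (log2 fold change 0.22, 95% interval −0.034 to 0.48, 0.085 to 0.35 with 1 library left out, adjusted p = 0.254). The kinase gene Cdc7 measured 23 and 23.4 CPM in pBABE and 26.2, 27.1 and 25.4 CPM in caMNK (0.18, adjusted p = 0.263). The pBABE libraries of Gins3 differed from each other by more than its caMNK libraries did, while those of Cdc7 lay close together. Cdc45, which joins the moving helicase, had a log2 fold change of 0.088 and Gins2 0.13. Gins1, Gins4 and Mcm10 overlapped between the groups, with 0.048, 0.025 and −0.00058. The median of the 7 genes was 0.088. Each of their 95% intervals included 0, and without caMNK replicate 3 Gins1 (−0.0089) and Gins4 (−0.066) lay below 0. The lean of this group was not tested.

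The polymerase and primase genes leaned downward, with 6 of 9 log2 fold changes below 0 and a median of −0.11. That lean was not tested. Pola1, the catalytic subunit of polymerase alpha (chromosome X, 93304767 to 93632155), had the largest difference of the 48 genes. It measured 129.7 and 134 CPM in pBABE and 96.7, 119 and 85.3 CPM in caMNK, a log2 fold change of −0.39 (95% interval −0.70 to −0.085, edgeR adjusted p = 0.109). The groups did not overlap, but caMNK replicate 2 lay nearer to pBABE than to caMNK replicate 3. The call came with the choice of libraries and of filter: without caMNK replicate 2 the value was −0.54 (adjusted p = 8.1e-05), and without a filter on low counts −0.40 (0.00443). Over the 5 fits that left out a library, the value ran from −0.54 to −0.28.

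Prim1, the catalytic subunit of primase and the partner of polymerase alpha in the same complex, lay the other way. It measured 55.5 and 58.8 CPM in pBABE and 69.3, 65.8 and 66.5 CPM in caMNK (log2 fold change 0.23, 95% interval 0.043 to 0.43, adjusted p = 0.121). The remaining subunits of that complex, Pola2 (−0.17, 95% interval −0.36 to 0.028) and Prim2 (−0.11, −0.33 to 0.11), were lower in every caMNK library. Of all genes, 22.6% lay wholly lower and 22.3% wholly higher. None of the 4 subunits was called, and whether they differ in direction was not tested. Pold1, the catalytic subunit of polymerase delta, was lower in every caMNK library (−0.14), and the groups overlapped for its partners Pold2 (−0.19) and Pold3 (0.028). For polymerase epsilon, Pole, which shares reads with Gm15792, had −0.020 and Pole2 0.14, and both overlapped.

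The clamp, its loader and the single-strand binding genes had a median of 0.023, and 1 of 8 was separated between the groups, where 44.9% of all genes were. Pcna, the sliding clamp and a common proliferation marker, had a log2 fold change of −0.027 and a 95% interval of −0.21 to 0.16. Its libraries measured 304 and 302 CPM in pBABE and 306, 285 and 301 CPM in caMNK. Rfc3, a small subunit of the clamp loader, was the separated gene, at 26.1 and 25.2 CPM in pBABE and 28.9, 27.7 and 30.1 CPM in caMNK (0.17, adjusted p = 0.282). Rfc1, the large loader subunit, measured 104 and 101 CPM in pBABE and 88.5, 103 and 83.5 CPM in caMNK (−0.16, adjusted p = 0.401). Here caMNK replicate 2 lay between the pBABE libraries, and caMNK replicates 1 and 3 lay below both. Rfc2 (0.014), Rfc4 (0.043, sharing reads with Eif4a2), Rfc5 (0.031, sharing reads with Wsb2), Rpa1 (−0.073) and Rpa2 (0.067) overlapped.

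Of the 3 genes that finish the lagging strand, Lig1, the ligase that joins its fragments (chromosome 7, 13277283 to 13311433), had the closest replicates. It measured 194 and 192 CPM in pBABE and 161, 162 and 161 CPM in caMNK, a log2 fold change of −0.26 (95% interval −0.44 to −0.083, edgeR adjusted p = 0.0761). The distance between the groups was many times the spread within either, and it was as large without caMNK replicate 2 (−0.27, adjusted p = 0.00686). Fen1, the flap nuclease, which shares reads with Gm10143 and Tmem258, measured 93.9 and 99.2 CPM in pBABE and 91.5, 84 and 90.3 CPM in caMNK (−0.12). The exonuclease gene Exo1 overlapped between the groups (log2 fold change 0.0027, 95% interval −0.21 to 0.22).

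The 5 genes of nucleotide supply had log2 fold changes between −0.041 and 0.13. Of the 5, 1 was separated between the groups, where 44.9% of all genes were. Rrm2, the regulated subunit of ribonucleotide reductase, was the one separated, at 201 and 208 CPM in pBABE and 236, 222 and 214 CPM in caMNK (0.13, 95% interval −0.065 to 0.32, adjusted p = 0.383). Its partner Rrm1, the large subunit, measured 375 and 389 CPM in pBABE and 376, 378 and 361 CPM in caMNK (−0.041). Dut, the dUTPase that keeps uracil out of DNA, measured 75.5 and 71.3 CPM in pBABE and 78.5, 73.4 and 82.8 CPM in caMNK (0.091, adjusted p = 0.570). Tyms, thymidylate synthase, had 0.080, and Tk1, thymidine kinase, whose span lies within Gm20708 on the opposite strand, −0.037.

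The 4 chromatin genes went both ways, and 2 of 4 were separated between the groups, where 44.9% of all genes were. Uhrf1, which recognises newly copied methylated DNA, measured 213 and 225 CPM in pBABE and 204, 187 and 197 CPM in caMNK (log2 fold change −0.16, adjusted p = 0.280). Its groups did not overlap, and neither did those of Chaf1b (0.12), a subunit of the histone loader CAF-1, which lay the other way. Its partner Chaf1a (0.020, sharing reads with Ubxn6) overlapped. Hells, a chromatin remodeller, measured 152 and 158 CPM in pBABE and 118, 158 and 108 CPM in caMNK (−0.28, 95% interval −0.62 to 0.067, adjusted p = 0.290). In caMNK replicate 2 it stood level with the pBABE libraries, and in the other caMNK libraries it lay below both. Without caMNK replicate 2 the value was −0.46 (adjusted p = 0.000203).

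**Figure D4:**
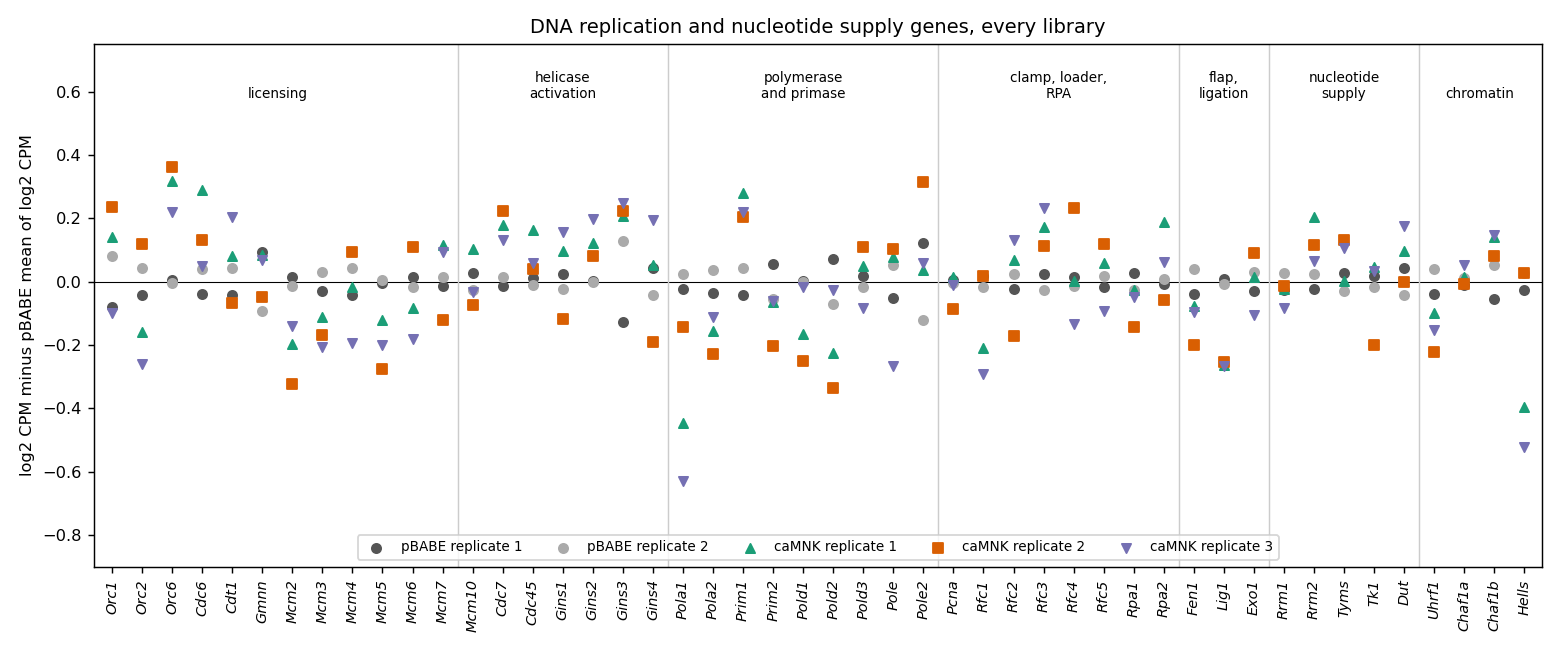
Log2 CPM of each of the 48 genes in each library, minus the mean of the pBABE libraries (y axis), grouped by role along the x axis. The pBABE libraries (circles) lie equally far above and below 0, since their own mean is subtracted. The caMNK replicate 2 values (squares) lie farthest from the mean of the other caMNK libraries for Hells, Pola1 and Orc2 (above) and Gins4 (below).

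Leaving out single libraries changed the calls. Without caMNK replicate 2, 7 of the 48 genes passed (14.6%), beside 29.6% of all genes in the same fit. Orc6 (log2 fold change 0.27) and Prim1 (0.25) rose there, and Pola1 (−0.54), Hells (−0.46), Lig1 (−0.27), Rfc1 (−0.25) and Orc2 (−0.21) fell. Without caMNK replicate 3 only Orc6 passed, beside 10.2% of all genes. None of the 48 passed without caMNK replicate 1 (1.51% of all genes), pBABE replicate 1 (0.132%) or pBABE replicate 2 (0.310%), where few genes passed at all. Among the caMNK libraries, replicate 2 was the lowest for 26 of the 48 genes and the highest for 18, beside 41% and 40.1% of all genes, so it lay at an extreme in both directions.

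The genes were also set against the length of their span. The deposited counts appear to cover whole gene bodies with introns, since 41 of the 48 deposited lengths equal the genomic span of the gene. Across the 48 genes, the log10 of the span and the difference in log2 CPM between caMNK replicate 2 and the mean of caMNK replicates 1 and 3 had a Pearson correlation of 0.474 (Spearman 0.469), beside 0.121 (0.193) over all 17026 tested genes. The span and the log2 fold change had a correlation of −0.425 (Spearman −0.356) over the 48 genes, −0.269 without the longest genes Pola1 and Prim2, and −0.0813 (−0.101) over all tested genes. Over the 7991 genes in the same range of abundance it was −0.177 (−0.232). For all tested genes and for the 7991, the deposited length was used in place of the span, which it does not always equal. These are descriptions across genes that share the same 5 libraries, and genes are not independent replicates. Hells, Pola1, Orc2 and Rfc1, with spans of 40137, 327389, 42339 and 73821 bases, were higher in caMNK replicate 2 by 0.48, 0.40, 0.33 and 0.27 on the log2 scale, and so were the shorter Rfc4 (13795 bases, 0.30) and Pole2 (26423 bases, 0.26). Of the 18 genes highest in caMNK replicate 2 among the caMNK libraries, 9 had spans of 30000 bases or more, of 13 such genes, and 9 had shorter spans, of 35; the 30000 bases were chosen after the values were seen. Prim2, with a span of 215986 bases, had a difference of −0.14 there. What part intronic reads have in these values was not tested.

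**Figure D5:**
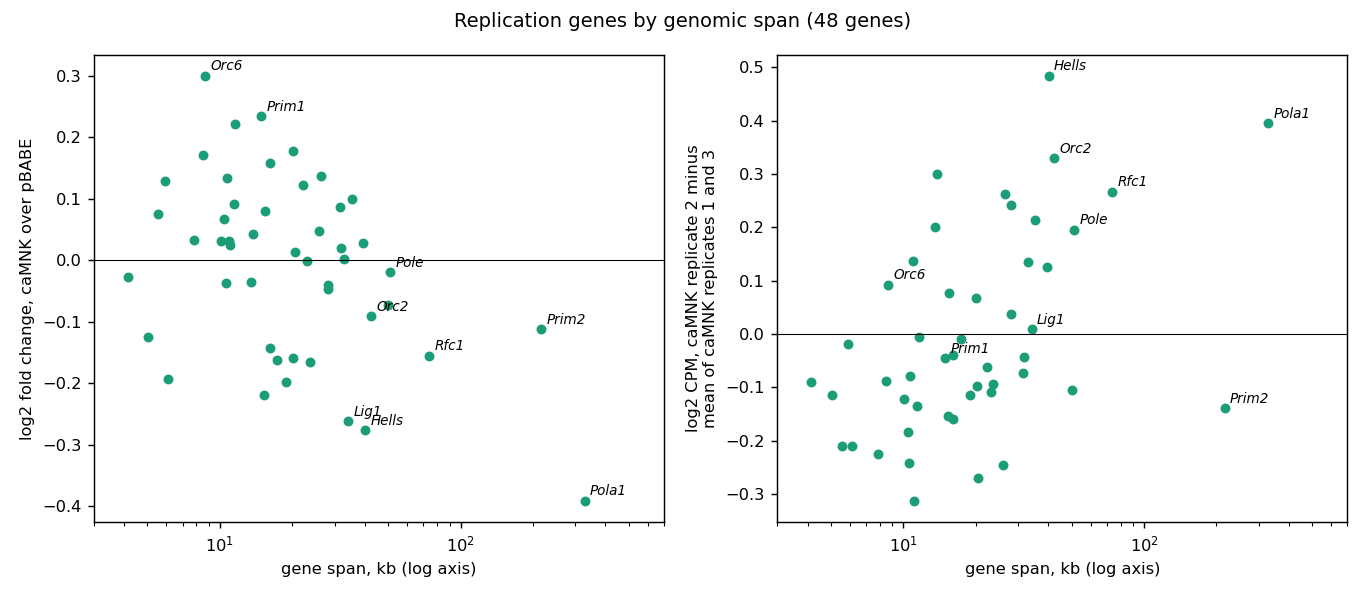
Genomic span of the 48 genes (x axis, kb, log axis) against the log2 fold change of caMNK over pBABE (left) and against the log2 CPM of caMNK replicate 2 minus the mean of caMNK replicates 1 and 3 (right). Each point is 1 gene. Pola1, the longest at 327389 bases, has the lowest fold change, and Hells has the highest value on the right.

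Further genes of the same pathway came from 2 lists not used above. Of 39 other replication genes, none passed by edgeR (7.94% of all genes did), 6 had an unadjusted p under 0.05 (25.9% of all genes), and the median log2 fold change was 0.014. The 3 with the lowest p were the fork protection gene Donson (0.31, adjusted p = 0.0951, sharing reads with Son and Atp5o), the clamp loader accessory gene Chtf8 (−0.25, 0.0975, sharing reads with Has3) and Pold4, the smallest subunit of polymerase delta (0.61, 0.107). Donson passed with the replicate block (0.00890) and when either caMNK replicate 2 (0.0235) or caMNK replicate 3 (0.0324) was left out. Chtf8 passed without caMNK replicate 2 (0.0204). Pold4 measured 17.6 and 20.4 CPM in pBABE and 29.3, 21.1 and 36.5 CPM in caMNK, again with caMNK replicate 2 nearest to pBABE. Pold4 passed by DESeq2 (adjusted p = 0.0185), with unfiltered genes (9.1e-05), with the replicate block (0.0179) and when caMNK replicate 2 was left out (9.2e-05). In that last fit, 2 genes of the list rose and 11 fell, beside 2325 and 2617 of the 16675 genes tested there (29.6% called).

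Of 23 other nucleotide supply genes, none passed by edgeR, 2 had an unadjusted p under 0.05, beside the same 7.94% and 25.9% of all genes, and the median was −0.033 with 16 values below 0. Cad, which encodes the enzyme that starts pyrimidine synthesis, measured 166 and 196 CPM in pBABE and 149, 135 and 143 CPM in caMNK (log2 fold change −0.35, edgeR adjusted p = 0.0663). Cad passed by DESeq2 (0.0420), with unfiltered genes (0.0124), with the replicate block (0.0218) and when caMNK replicate 2 was left out (0.00840). The nucleoside transporter gene Slc29a1, sharing reads with Gm17080, had −0.30 (0.108), and Ctps, the CTP synthase gene, −0.15 (0.276). Slc29a1 passed with unfiltered genes (0.0382) and with the replicate number as a block (0.00827). It also passed when either caMNK replicate 2 (0.0262) or caMNK replicate 3 (0.0328) was left out.

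Of 29 regulators of the step from G1 to S phase, 3 rose and none fell, with a median of −0.0042; of all genes, 4.42% rose and 3.52% fell. Cdkn2a, which encodes the CDK4/6 inhibitor p16 and the p53 activator p19Arf, measured 2.28 and 1.43 CPM in pBABE and 9.62, 7.08 and 11.9 CPM in caMNK (log2 fold change 2.34, SE 0.280, edgeR adjusted p = 0.00524). Its neighbour Cdkn2b, which encodes the inhibitor p15, measured 0.072 and 0.186 CPM in pBABE and 0.558, 0.617 and 0.513 CPM in caMNK (2.18, adjusted p = 0.0265). These levels are near the floor, under 1 CPM in every library, and Cdkn2b was not tested with the stricter filter. Myc, a growth transcription factor, had 0.38 (adjusted p = 0.0417). These 3 calls were lost without either pBABE library, with adjusted p-values up to 0.372 and log2 fold changes of 1.58 to 2.92 for Cdkn2b over the 5 libraries left out in turn, and those of Cdkn2b and Myc also without caMNK replicate 1. Beside these rises, E2f1, chosen after its values were seen, measured 82.7 and 88.1 CPM in pBABE and 88.4, 76.3 and 90.9 CPM in caMNK (−0.0042, 95% interval −0.23 to 0.23). Rb1, also chosen so, measured 48.5 and 47.8 CPM in pBABE and 64.5, 71.6 and 52.6 CPM in caMNK (0.39, edgeR adjusted p = 0.101). It shares reads with Gm17233, Lpar6 and Rcbtb2. The caMNK libraries lay wholly above pBABE for 8 of the 29 regulators and wholly below for 4, where 22.3% and 22.6% of all genes did so.

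Of 20 genes of G2 and mitosis, 1 fell and none rose (3.52% and 4.42% of all genes), with 16 of 20 log2 fold changes below 0 and a median of −0.16. The gene that fell was Bub1b, which encodes a spindle checkpoint kinase, at 168 and 169 CPM in pBABE and 132, 131 and 127 CPM in caMNK (log2 fold change −0.37, edgeR adjusted p = 0.0284). The kinetochore gene Cenpf had −0.42 (0.134) and the mitotic kinase gene Plk1 −0.22 (0.144). The caMNK libraries lay wholly below pBABE for 12 of the 20 genes and wholly above for none, where 22.6% and 22.3% of all genes did so. Without pBABE replicate 1, pBABE replicate 2 or caMNK replicate 1, Bub1b did not pass (adjusted p of 0.270, 0.255 and 0.133), and without caMNK replicate 2, 9 of the 20 fell, beside 2617 of 16675 genes in that fit. Whether this list differed from the replication genes was not tested.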

How the data were processed

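RNA of 2 pBABE and 3 caMNK libraries was sequenced. Per the labels' protocols, total RNA was made into libraries with the TruSeq Stranded Total RNA kit. The authors deposited raw read counts per gene symbol, 1 table per library, with a gene length as its other column. The submitters' processing notes name featureCounts 1.5.3 and the mm10 build, STAR 2.5.3, DESeq2, and also SAMtools 0.1.19, Trimmomatic 0.32 and FastQC 0.11.2. For the annotation and the counting options the entry is "not given in the sources used here". Checked against GENCODE M21, 37334 of 44145 lengths equalled the gene span, and of 27781 multi-exon genes 0 equalled the summed exons, so counts appear to include introns. Whether counting used strand is not known, so every statement that genes share reads means that they overlap and may do so. A sharing gene is named where its counts reach 10% of those of the gene, whatever the overlap.

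The counts were tested with edgeR 4.0.16 in R 4.3.3 (filterByExpr, TMM, robust quasi-likelihood F test, group as the only term) over all 17026 genes passing the filter, with Benjamini-Hochberg adjusted p under 0.05. CPM is on TMM-scaled totals, log2 CPM has a prior count of 2, SE is the log2 fold change over the square root of F, and intervals use the t quantile of the fit's degrees of freedom. The fit was tested on simulated data. Alternatives included DESeq2 1.42.0 and limma-voom (limma 3.58.1).

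The members and lists were chosen with earlier results of these data known. By the naming rule, values by library were given for Mcm2 to Mcm7, for members past the threshold and for the 2 members of lowest p in each role, and the 3 genes of lowest p in each further list were named. Pcna, Rrm1, Pola2 and the other genes given beyond it were named after their values were seen. In 41 of 47 promoter windows, bases after the start were found in a GENCODE transcript of the same gene and strand.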

Additional observations from a re-analysis of the deposited data

How the results depend on the processing

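Of the 48 replication genes, 31 kept the sign of their log2 fold change in every one of the 13 alternative settings that tested them (the fit without genes that share reads tested 36). The other 17 changed sign in some, each with a size of at most 0.048 in the reported fit and 0.092 after the change, and the cause was not tested. With total-count scaling the values were 0.018 for Mcm4, 0.0063 for Mcm6, 0.054 for Mcm10, 0.034 for Pole, 0.028 for Pcna, 0.014 for Rrm1 and 0.019 for Tk1. Mcm10 had 0.0030 with RLE scaling, 0.0029 by DESeq2, 0.0071 without genes that share reads and 0.016 with the stricter filter, and Exo1 had −0.0059 with no filter. Libraries of the same replicate number did not deviate together (correlations of deviations of −0.0549 for number 1 and −0.0252 for number 2). With 2 pBABE libraries, whose deviations mirror each other, these correlations cannot show whether the cultures were paired. With the replicate block, which leaves caMNK replicate 3 without a partner, values were 0.038 for Mcm4, 0.013 for Mcm6, −0.0026 for Mcm7, 0.014 for Mcm10, −0.011 for Gins1, −0.069 for Gins4, 0.090 for Pole and −0.051 for Rfc2.

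Leaving out 1 library at a time gave −0.062 to 0.12 for Gmnn, −0.11 to 0.041 for Mcm4, −0.13 to 0.018 for Mcm6, −0.0067 to 0.10 for Mcm7, −0.049 to 0.033 for Mcm10, −0.0089 to 0.13 for Gins1, −0.066 to 0.12 for Gins4, −0.018 to 0.083 for Pold3, −0.088 to 0.092 for Pole, −0.045 to 0.00043 for Pcna, −0.047 to 0.099 for Rfc2, −0.070 to 0.13 for Rfc4, −0.018 to 0.092 for Rfc5, −0.046 to 0.056 for Exo1, −0.076 to 0.039 for Tk1 and −0.0037 to 0.032 for Chaf1a. Among those that kept their sign, it gave 0.0068 to 0.19 for Orc1, −0.21 to −0.0099 for Orc2 and 0.018 to 0.25 for Pole2. Counts of called genes ran from 11 to 2325 higher and 12 to 2617 lower over all genes. They ran from 0 to 2 and 0 to 5 for the 48 genes, 0 to 2 and 0 to 11 for other replication genes, 0 to 2 lower for other nucleotide supply genes, 0 to 8 and 0 to 3 for G1/S regulators, 0 to 9 lower for G2 and mitosis genes, 0 to 9 higher for mitochondrial mRNAs, and 0 to 6 higher and 0 to 1 lower for nuclear non-coding RNAs. Without a pBABE library, the lone one is assumed to vary like the caMNK libraries.

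Counts over all genes were 1591 higher and 1330 lower with no filter, 1477 and 1231 with the replicate block, and 412 and 305 without genes that share reads, a fit over 10638 genes. Of the 48 genes, 1 was higher (Orc6) with total-count scaling and 1 with the replicate block, and 1 was lower (Pola1) with no filter, and their median was 0.0718 with total-count scaling, which moved the median of all genes to 0.0515. Other replication genes had 1 higher by DESeq2, 1 higher and 1 lower with no filter, and 2 higher and 1 lower with the replicate block. Other nucleotide supply genes had 1 lower by DESeq2, 2 with no filter and 2 with the block. G1/S regulators had 5 higher with no filter and 6 with the block, G2 and mitosis genes had 3 lower with no filter, and nuclear non-coding RNAs had 3 higher without genes that share reads. With 2 and 3 libraries, a difference within the printed intervals may go uncalled. The intervals are not adjusted for the number of genes tested and do not give the smallest detectable difference.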
